A study of Rattus norvegicus with 29 samples.

Results

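miR-128 and miR-129 are microRNAs enriched in the brain, and 5 of the 754 miRNAs counted in rat plasma carried one of these names: rno-miR-128-3p, rno-miR-128-1-5p, rno-miR-128-2-5p, rno-miR-129-5p and rno-miR-129-3p, written below without the rat prefix rno. They were taken by name, whatever the copy or arm, from the table of raw counts, and all 5 are described in all 29 rats. These miRNAs were picked with the difference between injured and sham-operated rats already known, so that difference is given below as a description without a test. Site, later epilepsy and the relation to a red cell marker were tested. The rows were taken by name and not by these comparisons. Earlier results of these data were known at the time, however, so the tests are not fully independent of the choice.

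The rats were adult male Sprague-Dawley rats with lateral fluid-percussion injury, a model of traumatic brain injury (TBI), or a sham operation, which comprised all of the surgery except the impact. The work was done at 3 sites, UEF, Monash and UCLA, and plasma was drawn from the tail vein under isoflurane into K2EDTA tubes 48 h after the operation. Injured rats were later called TBIE (with epilepsy) or TBIN (without epilepsy) from 4 weeks of video-EEG in the seventh month, so plasma was taken long before the outcome was known. UEF gave 4 sham, 4 TBIN and 4 TBIE rats, Monash 3, 3 and 2, and UCLA 3, 3 and 3, with 1 library for each rat.

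A miRNA gene is transcribed as a hairpin, and cutting the hairpin leaves a 5p and a 3p arm, of which usually one is retained in larger amounts. The retained arm guides silencing of mRNAs that pair with its seed, the bases near its 5′ end. miR-128-3p is among the abundant miRNAs of neurons, and miR-129 is likewise known from brain tissue, while plasma miRNAs otherwise come largely from blood cells, liver and other organs. Injury to the brain is studied in plasma because cellular RNA may reach the circulation.

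The mature sequences show why the table can separate some copies and not others. They are from RefSeq (assembly GRCr8), with the seed, bases 2 to 8, in capitals.
miR-128-3p: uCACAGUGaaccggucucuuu
miR-128-1-5p: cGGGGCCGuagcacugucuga
miR-128-2-5p: gGGGGCCGaugcacuguaaga
miR-129-5p: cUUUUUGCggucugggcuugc
miR-129-1-3p: aAGCCCUUaccccaaaaag
miR-129-2-3p: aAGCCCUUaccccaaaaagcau
The 5p arms of miR-128 come from separate genes and share a seed, but they differ outside it and are counted apart, whereas miR-128-3p and miR-129-5p each have a single sequence for both of their genes. The 3p arm of miR-129-1 is identical to the first 19 bases of the 3p arm of miR-129-2, which has 3 further bases. The table has a single entry for miR-129-3p, without a copy number, so which copy it stands for is not known from the name.

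The hairpins below show where each arm lies, with the mature arms in capitals and the rest in lower case. The sequences are given 5′ to 3′ on the strand of the gene.
Mir128-1: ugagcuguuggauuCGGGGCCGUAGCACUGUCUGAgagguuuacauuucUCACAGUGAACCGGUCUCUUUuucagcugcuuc
Mir128-2: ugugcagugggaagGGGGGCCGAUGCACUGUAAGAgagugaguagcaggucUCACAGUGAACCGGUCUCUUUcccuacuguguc
Mir129-1: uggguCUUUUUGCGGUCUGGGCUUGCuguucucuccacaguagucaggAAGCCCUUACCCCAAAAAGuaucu
Mir129-2: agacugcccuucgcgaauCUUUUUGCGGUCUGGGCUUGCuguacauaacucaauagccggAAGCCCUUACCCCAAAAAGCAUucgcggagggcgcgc
On GRCr8, Mir128-1 lies at chr13:42251884-42251965 (+ strand) within the span of R3hdm1, and Mir128-2 at chr8:120963795-120963878 (− strand) within the span of Arpp21, a gene of neurons. Mir129-1 lies at chr4:58589711-58589782 (+ strand) within a long non-coding RNA gene, and Mir129-2 at chr3:100657390-100657486 (− strand), where the annotation has no spanning gene. The counts themselves were made on Rnor_6.0 and carry no coordinates.

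A pair of other miRNAs in the table hold the core of the miR-128-3p seed displaced by 1 base.
miR-27a-3p: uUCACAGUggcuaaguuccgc
miR-27b-3p: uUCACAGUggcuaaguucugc
Their mean levels were 1264 and 2478 CPM (counts scaled to library size), below that of miR-128-3p, and past the seed the sequences differ. miR-216a-3p (11.5 CPM) also had a seed displaced by 1 base from that of miR-128-3p, and miR-3590-5p (20.02 CPM) one displaced by 1 base from that of miR-129-3p.

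The 5 miRNAs differed greatly in abundance. rno-miR-128-3p had a mean of 7368 ± 3773 CPM (SD, n = 29 rats; TMM-scaled, as all CPM here), which placed it 30th of 754, and it took 0.727% of all counts. rno-miR-129-5p was at 57.6 ± 31.9 CPM (285th), miR-128-1-5p at 22.1 ± 7.41 CPM (480th), miR-128-2-5p at 21.6 ± 10.7 CPM (487th) and rno-miR-129-3p at 18.1 ± 8.01 CPM (534th). Thus the 3p arm of miR-128 far exceeded both 5p arms, while the 5p arm of miR-129 was the larger one.

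The depth behind these values varied accordingly. Total miRNA counts per rat were 1162307 to 5223469 (median 2713557), with site medians of 2982654 at UEF, 2033040 at Monash and 2309929 at UCLA. Raw counts of miR-128-3p were 5307 to 43747 per rat. Those of miR-129-5p were 37 to 663, of miR-128-1-5p 17 to 123, of miR-128-2-5p 12 to 135 and of miR-129-3p 13 to 112, so no member fell below 10 counts in any rat. One library stood apart: UEF sham rat 3 had the highest total and a TMM factor of 0.333, and without it the TBI minus sham log2 differences were 0.977 for miR-128-3p, 0.84 for miR-129-5p and 0.705 for miR-129-3p.

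**Figure D1:**
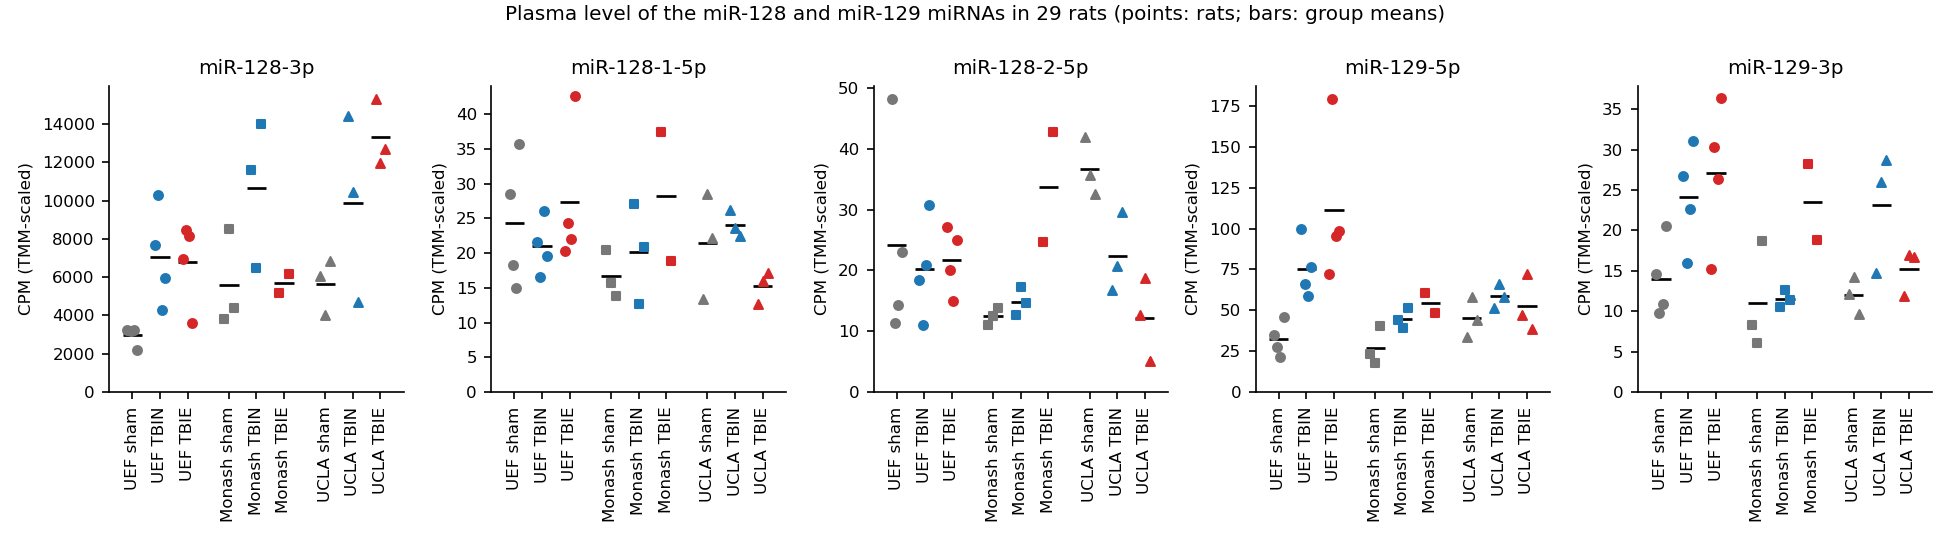
Level of each miRNA (CPM, TMM-scaled, linear axis from 0) in each of the 29 rats by site and condition, with points for rats (circles UEF, squares Monash, triangles UCLA; grey sham, blue TBIN, red TBIE) and bars for group means. miR-128-3p runs from 2181 to 15330 CPM and miR-129-5p from 17.5 to 179 CPM, and at UEF every injured rat lies above every sham rat for both.

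miR-128-3p was the only abundant member, and its level in sham rats was lowest at UEF. UEF sham rats had 3234, 3179, 3226 and 2181 CPM. UEF TBIN rats had 7674, 10299, 4270 and 5929 CPM, and UEF TBIE rats 6925, 8438, 8138 and 3593 CPM. All 8 injured rats of UEF were thus above all 4 sham rats of that site.

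At the other sites the ranges of miR-128-3p overlapped. Monash sham rats had 3818, 8509 and 4408 CPM, Monash TBIN rats 11572, 6458 and 13992 CPM, and Monash TBIE rats 5154 and 6182 CPM. UCLA sham rats had 6058, 4021 and 6863 CPM, UCLA TBIN rats 14405, 10457 and 4724 CPM, and UCLA TBIE rats 15330, 11954 and 12686 CPM. At Monash 2 of 5 injured rats lay above the highest sham rat, and at UCLA 5 of 6 did.

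miR-129-5p showed a similar separation at UEF and less of it at UCLA. UEF sham rats had 34.97, 27.7, 21.3 and 45.6 CPM, UEF TBIN rats 99.7, 65.9, 58.9 and 76.5 CPM, and UEF TBIE rats 72.1, 179, 95.2 and 98.7 CPM. Again all 8 injured rats of UEF exceeded all 4 sham rats. Monash sham rats had 23.2, 17.5 and 40.7 CPM, Monash TBIN rats 44.1, 39.4 and 51.2 CPM, and Monash TBIE rats 60.8 and 48.6 CPM. UCLA sham rats had 33.7, 58.0 and 43.9 CPM, UCLA TBIN rats 51.7, 66.3 and 57.9 CPM, and UCLA TBIE rats 47.0, 71.9 and 38.6 CPM. At Monash 4 of 5 injured rats were above the highest sham rat, against 2 of 6 at UCLA.

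miR-129-3p, the minor arm, followed miR-129-5p at lower counts. UEF sham rats had 14.6, 9.77, 10.9 and 20.5 CPM, UEF TBIN rats 26.8, 15.96, 22.6 and 31.1 CPM, and UEF TBIE rats 15.2, 30.3, 26.4 and 36.4 CPM. Monash sham rats had 8.28, 6.003 and 18.7 CPM, Monash TBIN rats 10.5, 12.6 and 11.3 CPM, and Monash TBIE rats 28.3 and 18.8 CPM. UCLA sham rats had 12.1, 14.3 and 9.67 CPM, UCLA TBIN rats 14.8, 26.0 and 28.8 CPM, and UCLA TBIE rats 11.9, 16.9 and 16.7 CPM. The ranges of injured and sham rats overlapped at every site.

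The 5p arms of miR-128 had no common pattern over the sites. miR-128-1-5p ranged from 13.4 to 35.8 CPM in sham rats (median 19.4, n = 10) and from 12.6 to 42.6 CPM in injured rats (median 21.6, n = 19). miR-128-2-5p was at 41.9, 35.7 and 32.6 CPM in UCLA sham rats, at 16.8, 20.8 and 29.5 CPM in UCLA TBIN rats, and at 12.6, 18.8 and 5.14 CPM in UCLA TBIE rats, so that all 6 injured rats of UCLA were below all 3 sham rats. At Monash the order was the opposite, with sham rats at 11.05, 12.5 and 13.8 CPM, TBIN rats at 12.7, 17.2 and 14.6 CPM and TBIE rats at 24.6 and 42.7 CPM. At UEF the sham rats spanned 11.4 to 48.2 CPM and the injured rats, 10.98 to 30.8 CPM, lay within that range or just below it.

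Between injured and sham-operated rats, 3 of the 5 miRNAs had a log2 difference of 0.74 to 0.99, and the 5p arms of miR-128 were closer to 0. These differences come from a fit of site and condition (edgeR), with TBI as the mean of TBIN and TBIE. The log2 difference was 0.99 (SE 0.23) for miR-128-3p, 0.94 (SE 0.20) for miR-129-5p and 0.74 (SE 0.21) for miR-129-3p. It was 0.08 (SE 0.19) for miR-128-1-5p and −0.24 (SE 0.27) for miR-128-2-5p. Over all 754 miRNAs, 1.19% passed the edgeR threshold (Benjamini-Hochberg adjusted p below 0.05) in this comparison and the median log2 difference was 0.03. Since the members were chosen on this comparison, nothing is read from that share.

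Over all sites, the injured rats still overlapped the sham rats. For miR-129-5p, 19 of 19 injured rats were above the sham median and 11 above the highest sham rat. For miR-128-3p, 18 were above the sham median and 8 above the highest sham rat, and for miR-129-3p the counts were 17 and 9. In plasma, release of more of one miRNA and a loss of others from the total cannot be told apart in CPM. With the reference miRNA of the study, miR-28-3p, used for scaling in place of TMM, the log2 differences were 0.995 (miR-128-3p), 0.881 (miR-129-5p) and 0.75 (miR-129-3p).

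**Figure D2:**
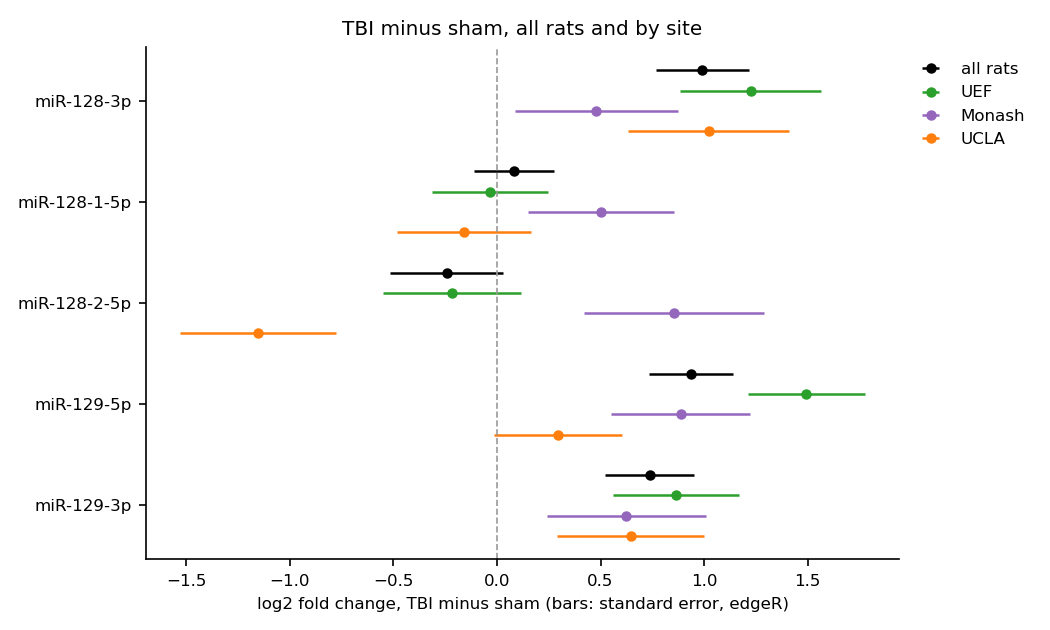
TBI minus sham log2 difference of each miRNA over all rats (black) and at UEF, Monash and UCLA (colours), with bars for 1 standard error of the edgeR fit and a dashed line at 0. The differences of miR-128-3p, miR-129-5p and miR-129-3p are above 0 at all 3 sites, from 0.30 to 1.49, while miR-128-2-5p is at 0.85 at Monash and −1.15 at UCLA.

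The size of the TBI minus sham difference was then compared between sites. miR-128-3p had log2 differences of 1.22 (SE 0.34) at UEF, 0.48 (SE 0.39) at Monash and 1.02 (SE 0.39) at UCLA, and a test that the 3 were equal gave adjusted p = 0.596 (edgeR). miR-129-5p had 1.49 (SE 0.28) at UEF, 0.89 (SE 0.34) at Monash and 0.30 (SE 0.31) at UCLA, with adjusted p = 0.190. miR-129-3p, with the sites in that order, had 0.86 (SE 0.31), 0.62 (SE 0.38) and 0.65 (SE 0.36), with adjusted p = 0.904. At UEF, where both miR-128-3p and miR-129-5p separated without overlap, 3.85% of all miRNAs passed the edgeR threshold for TBI minus sham. That share is another measure. How many of all miRNAs separated there without overlap was not counted, so nothing is read from the separation.

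The 5p arms of miR-128 differed in sign between sites, though not past the threshold. For UEF, Monash and UCLA in turn, miR-128-2-5p had log2 differences of −0.22 (SE 0.33), 0.85 (SE 0.43) and −1.15 (SE 0.38), with adjusted p = 0.118 for unequal differences (edgeR), and the same test in DESeq2 gave adjusted p = 0.0327. The edgeR value was 0.0402 without UEF sham rat 1. At UCLA, where its groups did not overlap, 1.46% of all miRNAs passed the edgeR threshold for TBI minus sham. The share of all miRNAs without overlap at UCLA was likewise not counted. miR-128-1-5p was at −0.03 (SE 0.28), 0.50 (SE 0.35) and −0.16 (SE 0.32), with adjusted p = 0.602. In edgeR 2.79% of all miRNAs passed this test of unequal differences, none of them a member, and the pooled value of miR-128-2-5p was 0.236 without the UCLA rats.

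Later epilepsy was compared among the injured rats, as the study was built to look for early plasma markers of it. No member differed between TBIE and TBIN, and none of the 754 miRNAs did in edgeR (0%, 17 at an unadjusted p below 0.05) or in DESeq2. miR-128-3p had 3593 to 15330 CPM in TBIE rats (median 8138, n = 9) and 4270 to 14405 CPM in TBIN rats (median 8987, n = 10), a log2 difference of −0.07 with a 95% interval of −0.59 to 0.46. miR-129-5p had 38.6 to 179 CPM against 39.4 to 99.7 CPM, a log2 difference of 0.30 (−0.16 to 0.76). The groups covered largely the same range for both.

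The other members likewise had intervals that included 0, at an adjusted p of 0.998 for each of the 5 (edgeR). The log2 differences were 0.14 (−0.34 to 0.63) for miR-129-3p, 0.08 (−0.38 to 0.55) for miR-128-1-5p and 0.17 (−0.48 to 0.82) for miR-128-2-5p. These intervals leave room for differences of up to 0.82 log2 units. The signs were not shared by the sites: for UEF, Monash and UCLA in turn, the log2 difference was −0.06, −0.91 and 0.43 for miR-128-3p, and 0.17, 1.02 and −0.61 for miR-129-3p. Monash had only 2 TBIE rats, and without the Monash rats the log2 difference was 0.148 for miR-128-3p and −0.148 for miR-129-3p.

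Site was associated with the level of miR-128-3p, with condition held in the model. Its median was 5099 CPM at UEF (2181 to 10299, n = 12), 6320 at Monash (3818 to 13992, n = 8) and 10457 at UCLA (4021 to 15330, n = 9). A test over the 3 sites gave adjusted p = 0.0485 (edgeR), where 14.7% of all miRNAs passed. UEF minus UCLA was −0.81 (SE 0.24, 95% interval −1.30 to −0.32, adjusted p = 0.0279 in edgeR), a comparison in which 9.42% of all miRNAs passed. UEF minus Monash was −0.54 (adjusted p = 0.165) and Monash minus UCLA −0.27 (adjusted p = 0.613).

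miR-129-5p, in contrast to miR-128-3p, had its highest median at UEF. Its median was 68.97 CPM at UEF (21.3 to 179), 42.4 at Monash (17.5 to 60.8) and 51.7 at UCLA (33.7 to 71.9). UEF minus Monash was 0.71 (SE 0.23, 95% interval 0.24 to 1.18, adjusted p = 0.0474 in edgeR, 9.68% of all miRNAs passed), while the test over the 3 sites missed the threshold (adjusted p = 0.0805). miR-129-3p was at 0.57 for UEF minus Monash (adjusted p = 0.131). The 5p arms of miR-128 had adjusted p-values of 0.644 (miR-128-1-5p) and 0.794 (miR-128-2-5p) over the 3 sites, and no member passed for Monash minus UCLA, where 5.44% of all miRNAs did.

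**Figure D3:**
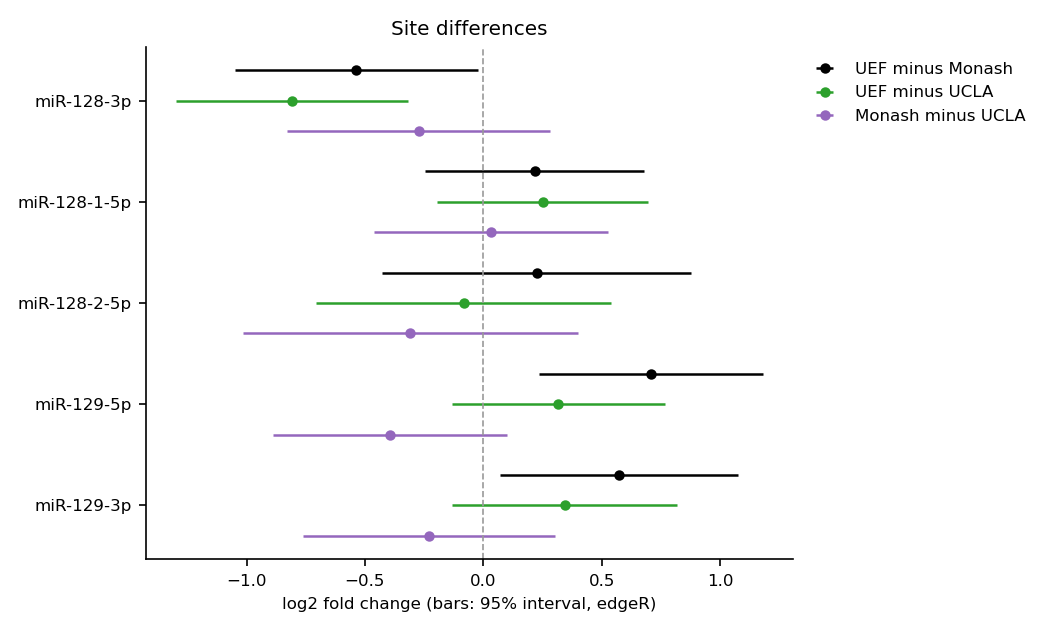
Log2 difference of each miRNA between pairs of sites (colours), with condition in the model, bars for the 95% interval and a dashed line at 0. miR-128-3p was lower at UEF than at UCLA (−0.81) and miR-129-5p higher at UEF than at Monash (0.71), and all other pairs missed the adjusted threshold.

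These site calls were close to the threshold. That of miR-128-3p over the 3 sites was lost in 16 of 29 fits with 1 rat left out (adjusted p 0.0178 to 0.0787) and had adjusted p = 0.237 in the sham rats alone and 0.253 in the injured rats alone. UEF minus UCLA of miR-128-3p lost its call only without UCLA sham rat 3 (adjusted p = 0.0518) among the single rats, and UEF minus Monash of miR-129-5p lost it in 25 of 29 such fits (adjusted p 0.0312 to 0.122). Site cannot be told apart from whatever else differed between the laboratories.

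miRNAs known from other sources also differed between the sites. Of 6 miRNAs of muscle (miR-1, miR-133a, miR-206), 4 passed over the 3 sites, and both arms of miR-122, the main liver miRNA, did, where 14.7% of all miRNAs passed. The summed level of the muscle miRNAs ranged from 679 to 52831 CPM at UEF, from 777 to 41043 at Monash and from 300 to 1108 at UCLA, and that of miR-122 from 24574 to 1653958 CPM at UEF, from 17814 to 128597 at Monash and from 5982 to 21649 at UCLA. Of 6 white cell and platelet miRNAs (miR-223, miR-142, miR-150), 3 passed over the 3 sites, with sums of 44512 to 102507 CPM at UEF, 56335 to 119529 at Monash and 54631 to 161492 at UCLA. Their part in the site differences of miR-128-3p and miR-129-5p was not tested.

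Ordered by mean over the 9 groups of site and condition, miR-128-3p was highest in UCLA TBIE rats (13323 ± 1776 CPM, n = 3), followed by Monash TBIN (10674 ± 3847), UCLA TBIN (9862 ± 4868), UEF TBIN (7043 ± 2578), UEF TBIE (6774 ± 2219), Monash TBIE (5668 ± 727), UCLA sham (5648 ± 1465), Monash sham (5578 ± 2555) and UEF sham (2955 ± 517). Of the neighbours in this order, only Monash sham and UEF sham had ranges that did not overlap, and their means were 1.03 times the larger SD apart. All other neighbours lay within 1 SD.

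For miR-129-5p the order ran from UEF TBIE (111 ± 46.8 CPM, n = 4) through UEF TBIN (75.3 ± 17.8), UCLA TBIN (58.6 ± 7.37), Monash TBIE (54.7 ± 8.67), UCLA TBIE (52.5 ± 17.3), UCLA sham (45.2 ± 12.2), Monash TBIN (44.9 ± 5.95) and UEF sham (32.4 ± 10.5) to Monash sham (27.1 ± 12.0). The ranges of all neighbours overlapped, and only Monash TBIN and UEF sham were more than 1 SD apart (1.201). miR-129-3p was likewise highest in UEF TBIE rats (27.1 ± 8.89) and lowest in Monash sham rats (10.996 ± 6.77), with all neighbours overlapping.

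The ratio of miR-451-5p, a miRNA of red cells, to miR-23a-3p, which is not, is used as a sign of hemolysis in plasma, so it was set beside each member. The study compared miR-23a and miR-451 by qPCR in the samples sent for sequencing and judged none of them hemolysed. By absorbance, all of their tubes and most of the pooled samples were within its limit. No cutoff was applied to the count ratio here, so a higher value is not a finding of hemolysis. On the log2 scale it ranged from −3.57 to −0.87 over the 29 rats. It was −2.15 ± 0.61 in injured rats (n = 19) and −2.86 ± 0.62 in sham rats (n = 10), a difference of 0.71 (two-sided permutation test, p = 0.00504, adjusted over 4 comparisons p = 0.0202). The difference was 0.97 at UEF (exact permutation p = 0.0404, adjusted 0.0539), −0.08 at Monash (exact permutation p = 0.786) and 1.08 at UCLA (exact permutation p = 0.0238, adjusted 0.0476).

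No difference in the ratio was found between sites (exact permutation tests, adjusted p = 0.625 for each of the 3 pairs) or between TBIE and TBIN rats (difference −0.20, exact permutation p = 0.491). Of 7 miRNAs of red cells (miR-451, miR-144, miR-486, miR-16), none passed the edgeR threshold between injured and sham rats, where 1.19% of all miRNAs did, and all 7 had a log2 difference above 0 (median 0.40), against 52.9% of all miRNAs (median 0.03). Their summed level was 128859 to 460048 CPM in sham rats and 167812 to 633449 CPM in injured rats, and no listed row was at 0 in all rats.

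miR-128-3p was higher where the ratio was higher. Over 29 rats Pearson's r was 0.61 (permutation p = 0.00056, adjusted over the 5 members 0.0028) and Spearman's rho 0.62 (permutation p = 0.00068, adjusted 0.0034). Without the 2 rats farthest from the median ratio, r was 0.55 and rho 0.57. Both measures were higher in injured rats, and for that reason the relation was also computed on the deviations from the means of the 9 groups, which gave rho = 0.45 (adjusted permutation p = 0.0233). Deviations within a group are not independent of each other, so p-values on deviations, here and below, are only approximate.

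Within the sites the relation of miR-128-3p to the ratio did not pass everywhere. At UEF r was 0.71 and rho 0.55 (n = 12, adjusted permutation p = 0.0522 and 0.336), and at Monash 0.35 and 0.36 (n = 8, adjusted exact p = 0.689 and 0.793). At UCLA they were 0.76 and 0.85 (n = 9, adjusted exact p = 0.0975 and 0.0152). In sham rats r was 0.51 (n = 10, adjusted permutation p = 0.331) and in injured rats 0.42 (n = 19, adjusted permutation p = 0.168). The ratio takes its values from the same libraries as the miRNA, and so shares their depth and composition.

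The miR-129 arms did not rise with the ratio. Over 29 rats r was 0.13 and rho 0.22 for miR-129-5p (adjusted permutation p = 0.619 and 0.336), and 0.01 and 0.09 for miR-129-3p (0.947 and 0.646). On the deviations from the group means the relation was negative, with rho = −0.529 for miR-129-5p (adjusted permutation p = 0.0098) and −0.619 for miR-129-3p (adjusted permutation p = 0.00195). As above, p-values on deviations are approximate. Within sham or injured rats alone, the relation is given on the levels themselves, with site differences left in, and did not pass. It is therefore no check of the relation on deviations. In sham rats r was −0.42 for miR-129-5p and −0.53 for miR-129-3p (n = 10, adjusted permutation p = 0.382 and 0.331), and in injured rats −0.24 and −0.28 (n = 19, adjusted permutation p = 0.320 and 0.309). For the 5p arms of miR-128 over 29 rats r was −0.21 (miR-128-1-5p) and −0.29 (miR-128-2-5p), with adjusted permutation p = 0.475 and 0.321. At UCLA miR-128-2-5p fell as the ratio rose by rho (−0.85, n = 9, adjusted exact p = 0.0152) but not by r (−0.67, adjusted exact p = 0.120).

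With the ratio added to the model as a covariate, the TBI minus sham log2 difference was 0.751 for miR-128-3p, 1.17 for miR-129-5p and 1.01 for miR-129-3p. Relative to the fit without it, the first was smaller and the other 2 were larger. The ratio itself differed between injured and sham rats and comes from the same libraries, so this fit cannot divide the differences into parts. The part of red cells in them was not tested.

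**Figure D4:**
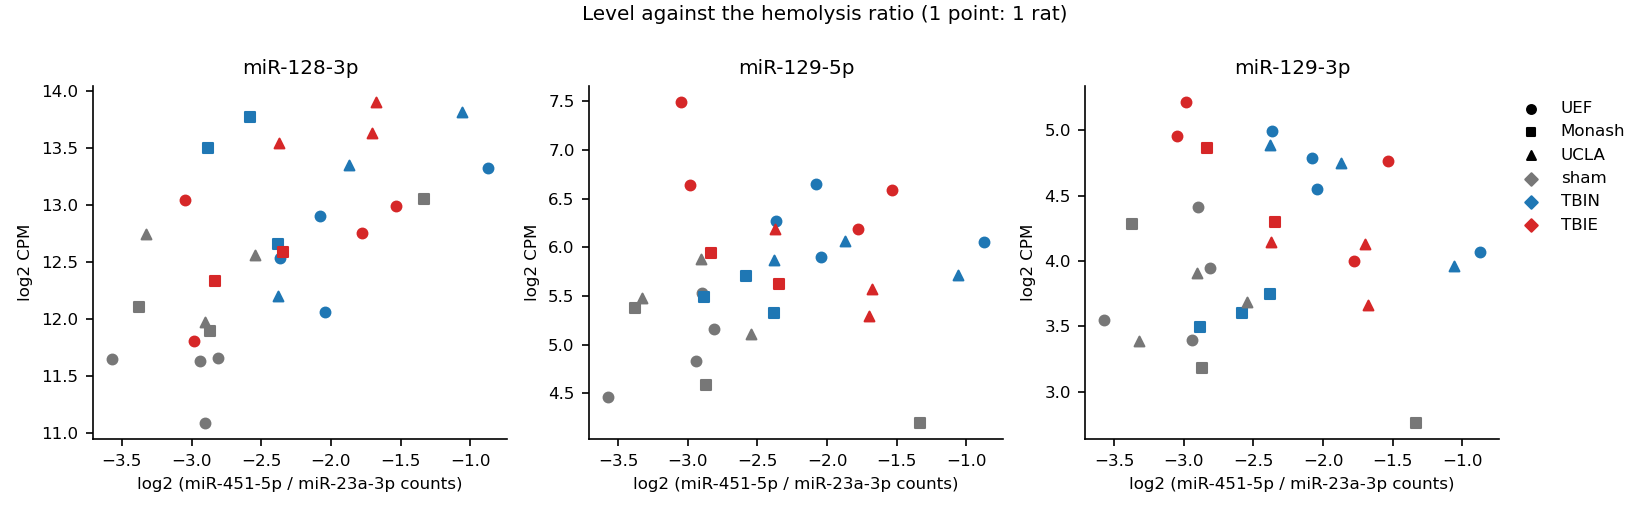
Level (log2 CPM, prior count 2) of miR-128-3p, miR-129-5p and miR-129-3p against the log2 ratio of miR-451-5p to miR-23a-3p, with 1 point for each of the 29 rats (shape for site, colour for condition). miR-128-3p rises with the ratio (rho = 0.62), while the miR-129 arms do not over all rats (rho = 0.22 and 0.09).

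Among the 10 pairs of members, only the arms of miR-129 passed the threshold over all rats. miR-128-1-5p and miR-129-3p came close by r (0.47, adjusted permutation p = 0.0516) and less so by rho (0.39, adjusted permutation p = 0.0884). For miR-129-5p and miR-129-3p r was 0.81 and rho 0.78 (adjusted permutation p = 0.0001 for both, the smallest that this adjustment of the permutations allows), and without the 2 rats farthest from the median r was 0.74. For UEF, Monash and UCLA alone r was 0.84, 0.83 and 0.57, and for sham and injured rats alone 0.74 and 0.69. On the deviations from group means rho was 0.69 (adjusted permutation p = 0.0003).

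For miR-128-3p and miR-129-5p no relation passed over all rats (r = 0.24, rho = 0.24, adjusted permutation p = 0.258 and 0.225). Within the injured rats, miR-128-3p was negatively related to miR-129-3p (r = −0.67, rho = −0.67, n = 19, adjusted permutation p = 0.00647 and 0.00627) and to miR-128-2-5p (r = −0.65, rho = −0.76, adjusted permutation p = 0.00647 and 0.003). Over all rats these pairs had r = −0.11 and −0.38 and did not pass. Values within the injured rats have the site differences left in. For UEF, Monash and UCLA, sham rats included, r was 0.33, −0.34 and −0.10 with miR-129-3p (none passed). With miR-128-2-5p it was −0.27, −0.13 and −0.76 (none passed), and rho at UCLA was −0.87 (adjusted exact permutation p = 0.0451). On deviations from group means, rho with miR-129-3p was −0.536 (adjusted permutation p = 0.014). Within the injured rats miR-129-3p was also positively related to the miR-128 5p arms, each by 1 measure only. With miR-128-1-5p r was 0.55 and rho 0.39 (adjusted permutation p = 0.0369 and 0.173). With miR-128-2-5p r was 0.47 and rho 0.63 (adjusted permutation p = 0.0643 and 0.0129). The 5p arms of miR-128, from separate genes, had r = 0.33 and rho = 0.41 (adjusted permutation p = 0.133 and 0.0884).

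**Figure D5:**
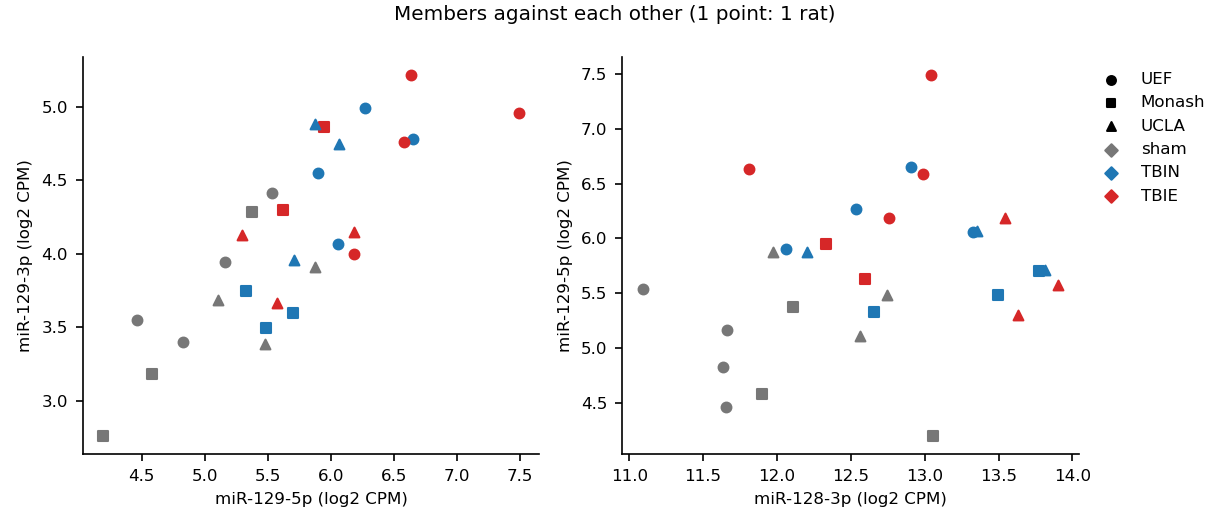
Levels (log2 CPM, prior count 2) of miR-129-3p against miR-129-5p and of miR-129-5p against miR-128-3p, with 1 point for each of the 29 rats (shape for site, colour for condition). The arms of miR-129 lie along a line (r = 0.81), and miR-129-5p and miR-128-3p are scattered (r = 0.24).

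The balance of the arms needs no scaling to library size. The log2 ratio of miR-129-5p to miR-129-3p was 1.62 ± 0.43 (0.94 to 2.56, n = 29). It did not differ between sites (1.62 at UEF, 1.55 at Monash and 1.67 at UCLA, exact permutation tests, adjusted p = 0.831 for each of the 3 pairs) or between TBIE and TBIN rats (1.75 and 1.66, exact permutation p = 0.650). It was 1.70 ± 0.44 in injured rats and 1.45 ± 0.38 in sham rats, with 1.83 against 1.204 at UEF, 1.66 against 1.36 at Monash and 1.56 against 1.88 at UCLA.

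For miR-128 the corresponding log2 ratio of the 3p arm to the sum of both 5p arms was 7.28 ± 1.06 over all rats. It was 7.62 ± 0.99 in injured rats and 6.62 ± 0.90 in sham rats. At UEF and UCLA the injured rats had the higher mean (7.22 against 6.03, and 8.26 against 6.57), and at Monash the means were 7.51 and 7.48. The miR-128-1-5p to miR-128-2-5p log2 ratio was −0.83 ± 0.70 in UCLA sham rats and 0.32 ± 0.77 in UCLA injured rats. Both miR-128 ratios were added after the values were seen and were not tested.

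The miRNAs whose levels over the 29 rats were most like each member differed between miR-128-3p and the miR-129 arms. By Spearman's rho, miR-128-3p was most like miR-383-5p (0.88), miR-191a-5p (0.86), miR-181d-5p (0.84), miR-425-5p (0.81) and miR-17-5p (0.80). For miR-129-5p they were miR-129-3p (0.78), miR-9a-3p (0.75), miR-323-3p (0.70), miR-409b (0.70) and miR-668 (0.67), and for miR-129-3p they were miR-9a-3p (0.79), miR-129-5p (0.78), miR-124-3p (0.72), miR-880-3p (0.69) and miR-412-5p (0.65). Of these, miR-383, miR-9a and miR-124 are on the list of brain miRNAs given below. The other neighbours that are not members are on none of the source lists used here. Among them are miR-191a-5p, miR-181d-5p, miR-425-5p and miR-17-5p for miR-128-3p. These values include the differences between the 9 groups, and on deviations from group means the order changed: miR-383-5p was 26th for miR-128-3p (rho 0.71), miR-181d-5p 38th (0.68) and miR-191a-5p 1st (0.85). For miR-129-5p, miR-9a-3p was then 1st (0.79), miR-129-3p 5th (0.69) and miR-323-3p 147th (0.30), and for miR-129-3p, miR-129-5p was 1st (0.69) and miR-9a-3p 13th (0.58).

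For the minor arms of miR-128 the nearest were miR-3561-3p (0.71), miR-879-5p (0.66), miR-207 (0.66), miR-3084a-5p (0.65) and miR-137-3p (0.65) for miR-128-1-5p. For miR-128-2-5p they were miR-3569 (0.81), miR-130a-5p (0.78), miR-488-5p (0.76), miR-344b-3p (0.74) and miR-10b-3p (0.73). Of these neighbours only miR-137 is on the brain list. On deviations from group means miR-3569 stayed 1st (0.82), but miR-344b-3p was 189th (0.24) and miR-10b-3p 174th (0.25), and for miR-128-1-5p miR-3561-3p was 14th (0.63). All share libraries and scaling with the member. The median rho over all miRNAs was −0.08 for miR-128-3p and 0.04 for miR-129-5p.

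Other miRNAs known from brain were looked up by name: miR-124, miR-9a, miR-137, miR-138, miR-153, miR-132, miR-212, miR-218a, miR-219a, miR-338, miR-383 and miR-384, which made 27 entries. None of the 27 passed between injured and sham rats (edgeR), and 21 had a log2 difference above 0, with a median of 0.23. Over all 754 miRNAs 52.9% were above 0, with a median of 0.03. This list and the other source lists were chosen with earlier results of these data known, so such counts are a description. The summed level of the 27 was 839 to 1297 CPM in sham rats and 1058 to 1440 CPM in injured rats.

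The 4 most abundant entries of that list were each far below miR-128-3p. miR-137-3p was at 110 ± 67.3 CPM in sham and 123 ± 58.8 CPM in injured rats (log2 difference 0.25, SE 0.29, adjusted p = 0.837 in edgeR). miR-138-5p was at 90.9 ± 26.3 and 99.7 ± 22.2 CPM, and miR-384-3p at 81.6 ± 35.2 and 85.9 ± 30.1 CPM. miR-9a-3p, the nearest neighbour of miR-129-3p, was at 67.6 ± 28.6 and 106 ± 36.3 CPM (log2 difference 0.61, SE 0.23, adjusted p = 0.232 in edgeR).

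Between sites 3 of the 27 passed over the 3 sites (miR-124-5p, miR-219a-5p and miR-383-5p), 11.1% against 14.7% of all miRNAs. For UEF minus Monash 5 passed (18.5% against 9.68%), for UEF minus UCLA 1, miR-383-5p, which was lower at UEF (3.7% against 9.42%), and for Monash minus UCLA 1 (3.7% against 5.44%). None passed for TBIE minus TBIN. 1 of them, miR-138-1-3p, passed the test of unequal TBI minus sham differences (3.7% against 2.79% of all miRNAs).

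Of the lists for other sources, only liver had a member that passed between injured and sham rats. miR-122-5p was lower in injured than in sham rats (log2 difference −1.65, SE 0.42, adjusted p = 0.0394 in edgeR). Its level in sham rats was 310422 ± 495247 CPM, with an SD above the mean. The summed miR-122 level was 12343 to 1653958 CPM in sham rats (median 125494) and 5982 to 251899 CPM in injured rats (median 39777). Since CPM are TMM-scaled, the values of a library need not add up to its total. Without the UEF rats miR-122-5p no longer passed in edgeR. None of the 6 muscle entries passed (4 above 0), with sums of 387 to 30610 CPM in sham and 300 to 52831 CPM in injured rats. None of the 6 white cell and platelet entries passed (6 above 0), with sums of 44512 to 102105 and 51203 to 161492 CPM. The part of these sources in the differences of miR-128-3p and the miR-129 arms was not tested.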

How the data were processed

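Plasma small RNA of 29 rats was counted by the authors as follows: RNA was extracted from plasma and QIAseq libraries carrying unique molecular identifiers (UMIs) were sequenced, reads were trimmed with cutadapt and mapped with Bowtie to Rnor_6.0, and miRNAs were named from miRBase. The deposited file holds these raw counts of 754 miRNAs, and whether reads of 1 molecule were merged is not given in the sources used here. 7 names join several miRNAs.

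The members and lists were chosen with earlier results of these data known. Groups came from the sample labels. edgeR 4.0.16 (limma 3.58.1, R 4.3.3) was run with TMM scaling, filterByExpr (minimum count 10, which removed nothing), site and condition in the model, and quasi-likelihood F tests, with Benjamini-Hochberg adjustment over 754 miRNAs and a threshold of 0.05. A model with the 9 group means gave the test by site. The biological coefficient of variation was 0.478. log2 CPM used a prior count of 2 and ratios a pseudocount of 0.5. Permutation tests were two-sided, exact where any group or correlation had under 10 rats and otherwise with 100000 resamples (scipy 1.17.1). Correlations were adjusted over 5 members and 10 pairs, since 2 more miRNAs carried the names than were planned for. Named miRNAs were the members, both of the ratio, miR-28-3p, the 5 of highest Spearman's rho with each member, the 4 most abundant of the brain list, and those sharing a seed. Alternatives were other scalings and filters, DESeq2 1.42.0, the ratio as a covariate, a replicate block, sites or rats left out, and deviations from group means. The edgeR fits were tried on simulated data, and the outcome is not given here. No libraries of a group agreed within counting noise (lowest chi-square per degree of freedom 75.3 over 34 pairs). 674 names matched a RefSeq mature sequence.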

Additional observations from a re-analysis of the deposited data

Results flagged for a closer look

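Each group of 4 to 10 rats was searched for a rat far from the others (Dixon's test on CPM), and 5 of 55 sets of 1 miRNA in 1 group had one, where chance gives about 1 in 20. The groups were sites, conditions and conditions within a site, so they share rats. Among the 4 sham rats of UEF, rat 4 had the lowest miR-128-3p, 2181 CPM, with the next at 3179 CPM. Among the 8 Monash rats, TBIE rat 2 had the highest miR-128-2-5p, 42.7 CPM, with the next at 24.6 CPM. Among the 9 TBIE rats, UEF TBIE rat 2 had the highest miR-129-5p, 179 CPM, with the next at 98.7 CPM. The same rat was also apart among the 8 injured rats of UEF, with the next at 99.7 CPM. Among these 8, UEF TBIE rat 4 had the highest miR-128-1-5p, 42.6 CPM, with the next at 26.0 CPM. Without UEF TBIE rat 2 the TBIE minus TBIN log2 difference of miR-129-5p was 0.114, against 0.30 with it, and neither passed the threshold.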

How the results depend on the processing

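The TBI minus sham log2 differences of miR-128-3p (0.93 to 1.14), miR-129-5p (0.84 to 1.05) and miR-129-3p (0.668 to 0.871) kept their sign without each rat in turn, and those of miR-128-1-5p (0.0105 to 0.181) and miR-128-2-5p (−0.359 to 0.00351) stayed near 0. Of 436 values under the other alternatives, 394 were marked as unchanged. For tested values this meant the same direction, where there was one, and the same side of the threshold. For TBI minus sham differences of the members it meant a change below the pooled SD of the member, so a change of sign could be included. Numbers of miRNAs past the threshold were allowed to change within a set factor. Where calls changed, the cause was not tested.

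UEF minus Monash of miR-129-5p lost its call with RLE scaling (0.664) and with miR-28-3p scaling (0.864). With miR-28-3p scaling miR-128-1-5p, Monash minus UCLA, was −0.0753 and miR-128-3p, TBIE minus TBIN, 0.0581, and the median of all miRNAs for TBIE minus TBIN moved by 0.143. DESeq2 gave adjusted p = 0.0327 for miR-128-2-5p by site. With the hemolysis ratio in the model miR-129-5p over the sites had adjusted p = 0.0398, miR-128-1-5p, Monash minus UCLA, was −0.0669 and miR-128-3p, TBIE minus TBIN, 0.0136. Replicate numbers did not pair the rats (same-numbered rats of a site had a median correlation of −0.00592, and 7 of 28 pairs were over 0.1). With the number as a replicate block, miR-128-3p over the sites had adjusted p = 0.193, UEF minus UCLA was −0.676, UEF minus Monash of miR-129-5p 0.669, both without a call, and miR-128-1-5p, Monash minus UCLA, −0.00641. TBIE minus TBIN of miR-128-1-5p was −0.116 without the UEF rats and −0.048 without the Monash rats, and without the Monash rats miR-128-2-5p was −0.259, miR-128-3p 0.148 and miR-129-3p −0.148. Over the sites miR-128-3p had adjusted p = 0.237 in sham rats alone and 0.253 in injured rats alone, and miR-129-5p 0.0432 in injured rats alone. On deviations from group means Spearman's rho was −0.619 for the ratio and miR-129-3p, −0.529 for the ratio and miR-129-5p, −0.0581 for the miR-128 5p arms, −0.0631 for miR-128-3p and miR-129-5p, and −0.536 for miR-128-3p and miR-129-3p.

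The number of miRNAs past the threshold moved most. UEF minus Monash (73) had 18 with miR-28-3p scaling, 110 with DESeq2 and 31 with the block, and UEF minus UCLA (71) had 46 with the block. TBI minus sham (9) had 17 with at least 10 counts in every rat, 24 with DESeq2, 4 with the ratio in the model, 4 with the block, 0, 21 and 14 without UEF, Monash and UCLA, and 15 without a site term. The test by site (21) had 11 with miR-28-3p scaling, 63 with DESeq2 and 8 with 2 levels of injury, and the 3 sites (111) had 66 in sham rats alone and 40 in injured rats alone.

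Without single rats, adjusted p was 0.0178 to 0.0787 for miR-128-3p over the sites, 0.0391 (without UEF sham rat 3) to 0.163 for miR-129-5p over the sites and 0.0402 (without UEF sham rat 1) to 0.204 for miR-128-2-5p by site. UEF minus UCLA was −0.924 to −0.745 for miR-128-3p and −0.291 to 0.0297 for miR-128-2-5p, UEF minus Monash of miR-129-5p 0.583 to 0.818, and Monash minus UCLA of miR-128-1-5p −0.135 to 0.122. TBIE minus TBIN was −0.0782 to 0.191 for miR-128-1-5p, −0.113 to 0.37 for miR-128-2-5p and −0.181 to 0.0417 for miR-128-3p. Counts past the threshold were 34 to 117 for UEF minus Monash, 25 to 59 for Monash minus UCLA, 1 (without UEF sham rat 4) to 16 (without Monash sham rat 2) for TBI minus sham and 9 to 33 for the test by site.

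Depth limits the minor members: 12 to 135 counts stood behind each value of the miR-128 5p arms and miR-129-3p.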
